A study of Mus musculus with 12 samples.

Results

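The p53 target genes are a list of 33 genes whose transcription is reported to be switched on by the tumor suppressor p53. They were picked by name, by a rule that uses no measured value although earlier results of these data were known, from the 52550 genes of the deposited tables, and all 33 were among the 16823 genes that passed edgeR's filter on low counts, Pmaip1 only through its counts in D2.OR. RNA was sequenced from the mouse mammary cancer cell lines D2A1 and D2.OR, which have separate mouse tumors as their source and unlike metastatic capacity. Each line was grown in 2D, directly on plastic, or in 3D, on top of Matrigel, a basement membrane gel, and the RNA of a library came from pooled wells. There were 3 replicates of each of the 4 groups (D2A1 2D, D2A1 3D, D2.OR 2D and D2.OR 3D), and the replicate number was also the batch number and marked the sequencing lane. Both lines are untreated and carry no introduced allele in the labels, each is a single line, and nothing in the labels says that the replicates were separately started cultures, so p-values measure the spread between these libraries. The question was which of the targets followed the difference between the lines in the Trp53 transcript and which did not.

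In mouse cells, p53 is the product of Trp53 and acts as a transcription factor that binds DNA as a tetramer, at sites built from a pair of similar decamers. After DNA damage or other stress the protein is stabilized and raises the transcription of genes for cell cycle arrest, DNA repair, apoptosis and metabolism, and some targets, such as Mdm2, act back on p53. The amount of its transcript need not follow the amount or the activity of the protein, and p53 protein was not measured in these libraries. The paper that reported these data could not detect p53 protein in either line by immunoblot. It also found that a compound that stabilizes p53 raised the RNA of the tested target genes in neither line. From this the paper proposes that both lines lack functional p53. Targets are therefore compared here with the Trp53 transcript alone, and p53 activity was not tested. Loss or mutation of p53 is common in mammary tumors.

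Library totals were 47589611 to 73325069 expected counts, with a median of 61747126. Both lines are labelled as breast cancer cell lines, and of 9 markers of mammary epithelium 2 had a median of at least 1 TPM (transcripts scaled for gene length to a fixed library sum) in D2A1 and 6 in D2.OR. Summed over the markers, the level was 94.1 to 297 TPM in D2A1 and 425 to 1723 TPM in D2.OR. In D2A1, the defining markers Epcam and Cdh1 reached at most 0.17 and 0.28 TPM. The 5 fibroblast markers summed to 17.4 to 51.2 TPM in D2A1 and 557 to 2429 TPM in D2.OR, and the 4 mesenchymal markers to 1607 to 3460 and 3472 to 6223 TPM, though Zeb1 among them was higher in D2A1 (11.8 to 24.1 TPM) than in D2.OR (1.23 to 10.9 TPM). The 5 leukocyte markers summed to 6.26 to 32.2 TPM in D2A1 and 2.34 to 6.96 TPM in D2.OR, with the defining marker Ptprc at 0.05 TPM or less in every library. The endothelial markers stayed at or below 0.42 TPM and the adipocyte markers at or below 77.0 TPM, this last in D2.OR. The sums of the epithelial and of the fibroblast markers thus moved with every line difference described here, and their part in those differences was not tested. Some single markers overlapped between the lines, among them Krt18 (92.7 to 294 TPM in D2A1 and 125 to 666 TPM in D2.OR) and Dcn (0.15 to 6.89 and 0.48 to 4.61 TPM). In bulk RNA, fewer cells of a type and less RNA per cell cannot be told apart.

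Trp53 (chr11:69580359-69591873 of GRCm38, plus strand, protein coding) differed far more between the lines than between the cultures. In D2A1 its level was 14.8, 17.5 and 13.9 TPM in 2D and 17.2, 17.6 and 20.2 TPM in 3D, for replicates 1, 2 and 3 in that order, which is kept in all lists of 3 values here. In D2.OR it was 2243, 1600 and 1626 TPM in 2D and 1368, 1292 and 1358 TPM in 3D. Every D2.OR library lay far above every D2A1 library. The log2 fold change of D2.OR over D2A1 was 6.80 (SE 0.21, adjusted p = 6.77e-08) in 2D and 5.96 (SE 0.20, adjusted p = 1.25e-07) in 3D with edgeR's quasi-likelihood test, adjusted over all genes tested. The mean gene length that RSEM assigned to Trp53 from the mix of its transcripts was 1939 to 2021 bases in D2A1 and 1744 to 1764 bases in D2.OR, without overlap. Such a separation was found for 3.58% of all genes tested and for 2 of the 33 targets, Bax and Ddb2.

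Against this difference, a target was said to follow Trp53 when it was higher in D2.OR at an adjusted p under 0.05 in both cultures, and to oppose it when it was lower in both. In 2D, 22 of the 33 targets passed the test, 12 of them higher and 10 lower in D2.OR. Over all genes tested the share was 49.8%, with 25.4% higher and 24.4% lower. In 3D, 21 targets passed, 13 higher and 8 lower, against 53.8% of all genes, 27.7% higher and 26.1% lower. The median log2 fold change of the targets was 0.05 in 2D and 0.25 in 3D, and that of all genes was -0.003 and 0.001. With library totals in place of edgeR's TMM scaling, 7 targets were higher and 11 lower in 2D, and of all genes 20.2% were higher and 32.1% lower. Without replicate 2 in every group the counts were 11 in 2D and 12 in 3D, against 24.9% and 31% of all genes, and without replicate 3 the 2D count was 14, against 31.8%.

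Of the 33 targets, 11 followed Trp53 (20.3% of all genes tested did so), 7 opposed it (17.8% of all genes), 9 passed the test in neither culture (34.7%), and 6 passed in 1 culture or in opposite directions (27.2%). The 11 that followed were Pmaip1, Apaf1, Ei24, Perp, Ccng1, Plk2, Sfn, Ddb2, Dram1, Phlda3 and Cd82. The 7 that opposed were Bax, Eda2r, Fbxw7, Ppm1d, Zmat3, Ak1 and Fdxr. In TPM, the 6 libraries of D2.OR lay wholly above the 6 of D2A1 for 7 targets (15.4% of all genes) and wholly below for 7 (16.9%), and overlapped for 19. In no role group did all members follow Trp53. Among the 8 genes of mitochondrial apoptosis 4 followed, 1 opposed and 3 passed in neither culture, and among the 3 death receptors none followed and 1, Eda2r, opposed. Among the 9 genes of cell cycle and feedback 3 followed and 3 opposed, among the 5 of DNA repair and nucleotide supply 1 followed and none opposed, and among the 8 of stress, autophagy and metabolism 3 followed and 2 opposed. Under the 24 alternatives no target passed from following to opposing or back, the number that followed ranged from 7 to 11, and the number that opposed from 2 to 8. Without replicate 2 in every group 2 targets opposed, and without replicate 3 there were 3.

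**Figure D1:**
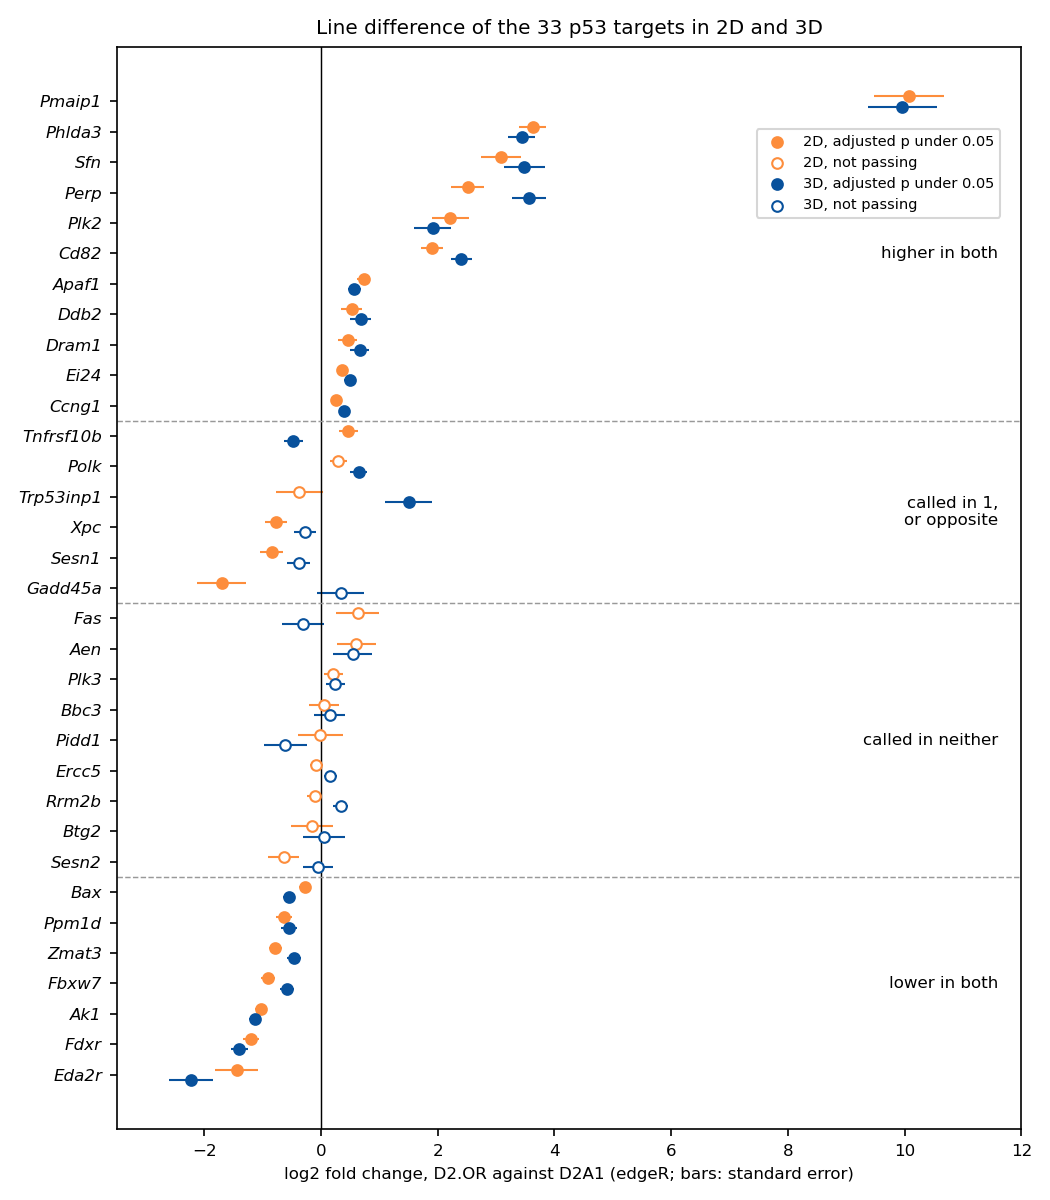
Log2 fold change of D2.OR against D2A1 (x axis) for each of the 33 targets (rows), in 2D (orange) and 3D (blue), from edgeR, with bars for the standard error and filled points for an adjusted p under 0.05. The 11 targets at the top are higher in D2.OR in both cultures and the 7 at the bottom lower in both, and the Pmaip1 values rest on a D2A1 level at or near 0 counts.

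The genes of mitochondrial apoptosis held the most extreme member. Pmaip1, which encodes the pro-apoptotic protein Noxa, had 1, 0 and 0 counts in D2A1 2D and 0, 0 and 1 in D2A1 3D. In D2.OR it had 537, 383 and 526 counts (4.89, 4.79 and 6.73 TPM) in 2D and 609, 314 and 385 counts (6.98, 3.22 and 3.91 TPM) in 3D. All D2.OR libraries thus held Pmaip1 at a low level and D2A1 held at most 1 count. Against a floor of 3 counts per library, D2.OR exceeded D2A1 by a bound of at least 158.8-fold in 2D and at least 158.9-fold in 3D. It passed the low-count filter only through D2.OR, so it had to differ, and its place among the targets that followed is a description.

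Perp (chr10:18845020-18857073, plus strand) encodes a membrane protein of desmosomes that also takes part in apoptosis, and was the most abundant target in D2.OR. It stood at 163, 64.7 and 82.5 TPM in D2A1 2D and 182, 29.9 and 33.02 TPM in D2A1 3D. In D2.OR it stood at 1482, 332 and 260 TPM in 2D and 1420, 490 and 469 TPM in 3D. The lines did not overlap, but replicate 1 was far above the other replicates in every group. The log2 fold change was 2.51 (SE 0.29, adjusted p = 0.000129) in 2D and 3.57 (SE 0.30, adjusted p = 1.98e-05) in 3D, and within batches the log2 CPM difference was 1.78 to 3.31 in 2D and 2.94 to 3.99 in 3D.

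The other members of this group differed less. Apaf1, the scaffold of the apoptosome, was higher in D2.OR by 0.74 (SE 0.11) on the log2 scale in 2D and 0.57 (SE 0.11) in 3D. Ei24, an endoplasmic reticulum membrane protein, was higher by 0.36 (SE 0.09) and 0.49 (SE 0.09), and its 2D call was made under 21 of the 24 alternatives, with 0.20 (adjusted p = 0.0949) under library totals in place of TMM and 0.29 (adjusted p = 0.164) without replicate 2 in every group. Bax, which forms pores in the mitochondrial membrane, went the other way and was lower in D2.OR, with log2 fold changes of -0.27 (SE 0.10, adjusted p = 0.0482) in 2D and -0.55 (SE 0.10, adjusted p = 0.00175) in 3D. It was at 135 to 186 TPM in D2A1 and 98.7 to 132 TPM in D2.OR, without overlap, and the call in 2D was made under only 6 of the 24 alternatives. Bbc3, which encodes Puma, had 13.6 to 33.2 TPM in D2A1 and 16.0 to 34.7 TPM in D2.OR and passed in neither culture, and neither did Aen, a nuclease, nor Pidd1, a scaffold for caspase activation. So the genes for Noxa and Puma, related pro-apoptotic proteins, gave unlike values, with Pmaip1 almost absent from D2A1 and Bbc3 at overlapping levels in the lines.

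Among the death receptors, Eda2r (chrX:97333840-97377216, minus strand), a receptor for an ectodysplasin, had the largest log2 difference of the 7 targets that opposed Trp53, in 2D as in 3D. It measured 0.91, 2.17 and 1.19 TPM in D2A1 2D and 0.79, 1.15 and 1.28 TPM in D2A1 3D. In D2.OR it measured 0.65, 0.33 and 0.63 TPM in 2D and 0.23, 0.26 and 0.16 TPM in 3D. All levels were low, and the lines did not overlap. The log2 fold change was -1.44 (SE 0.37, adjusted p = 0.0105) in 2D and -2.22 (SE 0.38, adjusted p = 0.00118) in 3D. Without replicate 2 in every group the 2D value was -0.91 (adjusted p = 0.152), and without replicate 3 it was -1.52 (adjusted p = 0.0715). Over the 24 alternatives the 2D value of Eda2r ran from -1.92 to -0.63 and that of Fdxr from -1.36 to -1.10, so the 2D rank did not hold in all of them.

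Tnfrsf10b, a receptor for the death ligand TRAIL, was the only target called in both cultures in opposite directions, as were 0.208% of all genes. Its log2 fold change was 0.47 (SE 0.16, adjusted p = 0.0352) in 2D and -0.47 (SE 0.16, adjusted p = 0.0325) in 3D. The levels overlapped between the lines, at 15.4 to 22.2 TPM in D2A1 and 12.9 to 26.8 TPM in D2.OR. The calls were made under 13 and 16 of the 24 alternatives. Fas, the receptor for Fas ligand, passed in neither line comparison and is described with the cultures.

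The group of cell cycle and feedback genes split evenly. Sfn (chr4:133600556-133602168, minus strand) encodes stratifin, an epithelial protein that holds cells before mitosis. It was at 0.51, 0.73 and 1.23 TPM in D2A1 2D and 0.48, 0.39 and 0.37 TPM in D2A1 3D, and at 5.83, 5.56 and 7.72 TPM in D2.OR 2D and 6.94, 3.27 and 4.31 TPM in D2.OR 3D. It was low everywhere and higher in each D2.OR library than in any D2A1 library, by 3.09 (SE 0.34, adjusted p = 0.000103) on the log2 scale in 2D and 3.49 (SE 0.35, adjusted p = 5.69e-05) in 3D.

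Plk2 (chr13:110395046-110400844, plus strand), a polo-like kinase of the centriole cycle, was at 19.4, 13.3 and 6.78 TPM in D2A1 2D and 12.4, 12.3 and 16.9 TPM in D2A1 3D. In D2.OR it was at 61.6, 54.3 and 46.8 TPM in 2D and 69.4, 47.8 and 50.3 TPM in 3D. The lines did not overlap, and the log2 fold change was 2.22 (SE 0.32, adjusted p = 0.000477) in 2D and 1.92 (SE 0.31, adjusted p = 0.000896) in 3D. Ccng1, the gene for a G-type cyclin, followed with a small difference of 0.27 (SE 0.09, adjusted p = 0.0362) in 2D and 0.40 (SE 0.09, adjusted p = 0.00503) in 3D, and its 2D call was made under 7 of the 24 alternatives. Plk3, a relative of Plk2 (29.6 to 60.9 TPM in D2A1 and 40.1 to 57.8 TPM in D2.OR) passed in neither culture.

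The members of this group that opposed Trp53 were Fbxw7, Zmat3 and Ppm1d. Fbxw7 (chr3:84815268-84979198, plus strand), which selects cyclin E and Myc for destruction, was at 12.7, 13.5 and 14.2 TPM in D2A1 2D, 11.8, 9.92 and 9.64 TPM in D2A1 3D, 6.40, 6.66 and 6.61 TPM in D2.OR 2D, and 8.77, 6.87 and 5.98 TPM in D2.OR 3D. It was lower in every D2.OR library than in any D2A1 library, with a log2 fold change of -0.91 (SE 0.12, adjusted p = 0.000278) in 2D and -0.58 (SE 0.12, adjusted p = 0.00305) in 3D. Without replicate 2 its 3D value was -0.57 (adjusted p = 0.0675).

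Zmat3 (chr3:32334792-32366014, minus strand), an RNA-binding zinc finger protein, was at 12.3, 15.1 and 11.2 TPM in D2A1 2D, 12.6, 10.2 and 11.5 TPM in D2A1 3D, 5.93, 6.86 and 7.59 TPM in D2.OR 2D, and 7.74, 7.66 and 8.49 TPM in D2.OR 3D. Again the lines were separate, at -0.78 (SE 0.12, adjusted p = 0.000607) in 2D and -0.46 (SE 0.12, adjusted p = 0.00818) in 3D. The 3D adjusted p was 0.0596 without replicate 2 and 0.055 without replicate 3.

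Ppm1d (chr11:85311244-85347066, plus strand), a phosphatase that damps p53 and DNA damage signaling, was at 13.8, 14.1 and 16.3 TPM in D2A1 2D, 13.2, 14.7 and 14.1 TPM in D2A1 3D, 9.59, 7.06 and 9.24 TPM in D2.OR 2D, and 10.6, 9.57 and 9.17 TPM in D2.OR 3D. It too was lower in every D2.OR library, at -0.64 (SE 0.14, adjusted p = 0.00422) in 2D and -0.55 (SE 0.14, adjusted p = 0.00792) in 3D. Without replicate 2 in every group the adjusted p was 0.0651 in 2D and 0.0763 in 3D, and without replicate 3 it was 0.0624 and 0.0942. Btg2, an antiproliferative gene, passed in neither culture, and its ranges of 5.58 to 59.6 TPM in D2A1 and 5.93 to 46.1 TPM in D2.OR overlapped almost wholly.

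**Figure D2:**
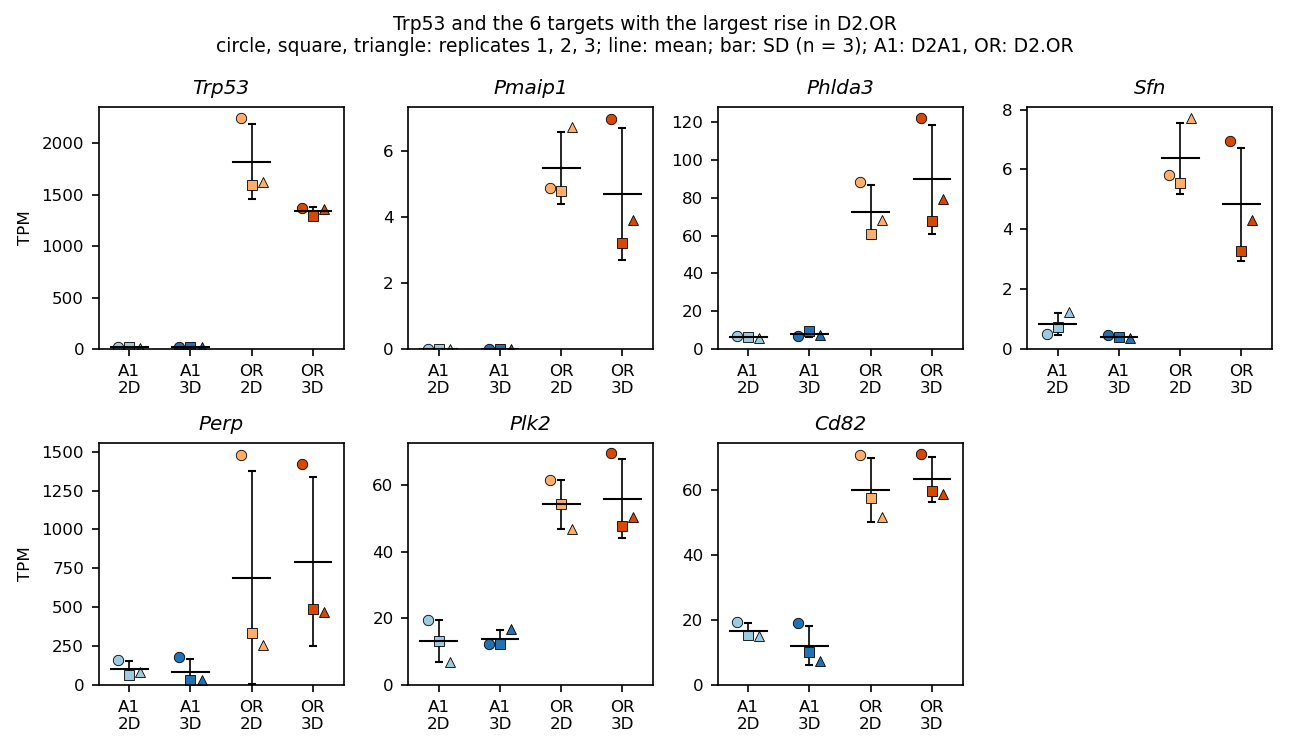
TPM (y axis, from 0) of Trp53 and of the 6 targets with the largest rise in D2.OR, in the 4 groups (x axis), with 1 point per library, the mean as a line and the SD as a bar (n = 3). The D2.OR libraries lie above the D2A1 libraries in each panel, and replicate 1 (circles) of Perp reaches 1482 and 1420 TPM in D2.OR.

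In DNA repair and nucleotide supply the differences were small. Ddb2, which recognizes ultraviolet damage, followed Trp53 with a log2 fold change of 0.53 (SE 0.18, adjusted p = 0.0363) in 2D and 0.69 (SE 0.18, adjusted p = 0.0103) in 3D, and its 2D call was made under 10 of the 24 alternatives. Xpc, another damage recognition gene, was lower in D2.OR in 2D, at -0.77 (SE 0.19, adjusted p = 0.00909), and gave -0.27 (SE 0.19, adjusted p = 0.252) in 3D. Its 2D call was made under 20 of the 24 alternatives, with an adjusted p of up to 0.14 without replicate 2, and the difference within batches 1, 2 and 3 was -0.10, -1.10 and -1.09. Polk, a translesion polymerase, was higher in D2.OR in 3D, at 0.65 (SE 0.15, adjusted p = 0.00495), and gave 0.30 (SE 0.15, adjusted p = 0.122) in 2D. Whether the difference changed between the cultures was asked by the interaction, which called neither of them in edgeR's fit to all libraries. The interaction of Xpc was called under 2 of its 23 alternatives, which gave 0.22 to 0.98 on the log2 scale. Ercc5, a repair nuclease, and Rrm2b, a ribonucleotide reductase subunit, passed in neither culture.

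Among the genes of stress, autophagy and metabolism, Phlda3 (chr1:135766119-135769136, plus strand), an inhibitor of the kinase Akt, had the largest difference in 2D after Pmaip1, and in 3D stood behind Perp and Sfn as well. It was at 6.66, 6.56 and 5.92 TPM in D2A1 2D and 6.76, 9.31 and 7.35 TPM in D2A1 3D. In D2.OR it was at 88.5, 60.7 and 68.2 TPM in 2D and 122, 67.9 and 79.2 TPM in 3D. It was the 27th of the 33 targets by median TPM in D2A1 and the third in D2.OR. The lines were far apart, at 3.63 (SE 0.23, adjusted p = 4.3e-06) on the log2 scale in 2D, a fold of 12.4, and 3.44 (SE 0.23, adjusted p = 5.32e-06) in 3D, a fold of 10.9.

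Cd82 (chr2:93419111-93463140, minus strand), a tetraspanin, was at 19.4, 15.4 and 15.2 TPM in D2A1 2D, 19.1, 10.1 and 7.36 TPM in D2A1 3D, 70.9, 57.6 and 51.9 TPM in D2.OR 2D, and 71.4, 59.8 and 59.0 TPM in D2.OR 3D. The lines did not overlap, and the log2 fold change was 1.91 (SE 0.18, adjusted p = 4.6e-05) in 2D and 2.41 (SE 0.19, adjusted p = 1.22e-05) in 3D. Dram1, a lysosomal membrane protein of autophagy, followed with 0.46 (SE 0.16, adjusted p = 0.0423) in 2D, called under 9 of the 24 alternatives, and 0.67 (SE 0.16, adjusted p = 0.00768) in 3D.

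Both members of this group that opposed Trp53 are enzymes. Ak1 (chr2:32621758-32635058, plus strand), the adenylate kinase that balances adenine nucleotides, was at 68.0, 77.2 and 80.7 TPM in D2A1 2D, 86.4, 103.6 and 88.5 TPM in D2A1 3D, 26.5, 36.0 and 32.3 TPM in D2.OR 2D, and 41.2, 50.3 and 40.2 TPM in D2.OR 3D. Fdxr (chr11:115268024-115277050, minus strand), the mitochondrial ferredoxin reductase, was at 10.96, 12.9 and 10.7 TPM in D2A1 2D, 12.03, 10.5 and 10.6 TPM in D2A1 3D, 5.05, 4.68 and 3.90 TPM in D2.OR 2D, and 5.02, 3.85 and 3.94 TPM in D2.OR 3D. Both were lower in each D2.OR library than in any D2A1 library. The log2 fold changes of Ak1 were -1.03 (SE 0.10, adjusted p = 6.24e-05) in 2D and -1.12 (SE 0.10, adjusted p = 3.38e-05) in 3D, and those of Fdxr were -1.19 (SE 0.14, adjusted p = 0.00014) and -1.40 (SE 0.14, adjusted p = 5.23e-05).

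The sestrins, stress proteins that restrain growth signaling, gave Sesn1 lower in D2.OR in 2D, at -0.84 (SE 0.20, adjusted p = 0.0068), with -0.38 (SE 0.20, adjusted p = 0.13) in 3D, and Sesn2 passing in neither culture. Trp53inp1, an autophagy and apoptosis gene, was higher in D2.OR in 3D, at 1.502 (SE 0.40, adjusted p = 0.0114), and gave -0.37 (SE 0.40, adjusted p = 0.471) in 2D. Its 3D call was made under 20 of the 24 alternatives, with an adjusted p of up to 0.14 without replicate 2 in every group, and without D2A1 3D replicate 2 or replicate 3 it was 0.0541 and 0.0543. The 2D call of Sesn1 was made under 21 of them, with an adjusted p of up to 0.16 without the replicate block.

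**Figure D3:**
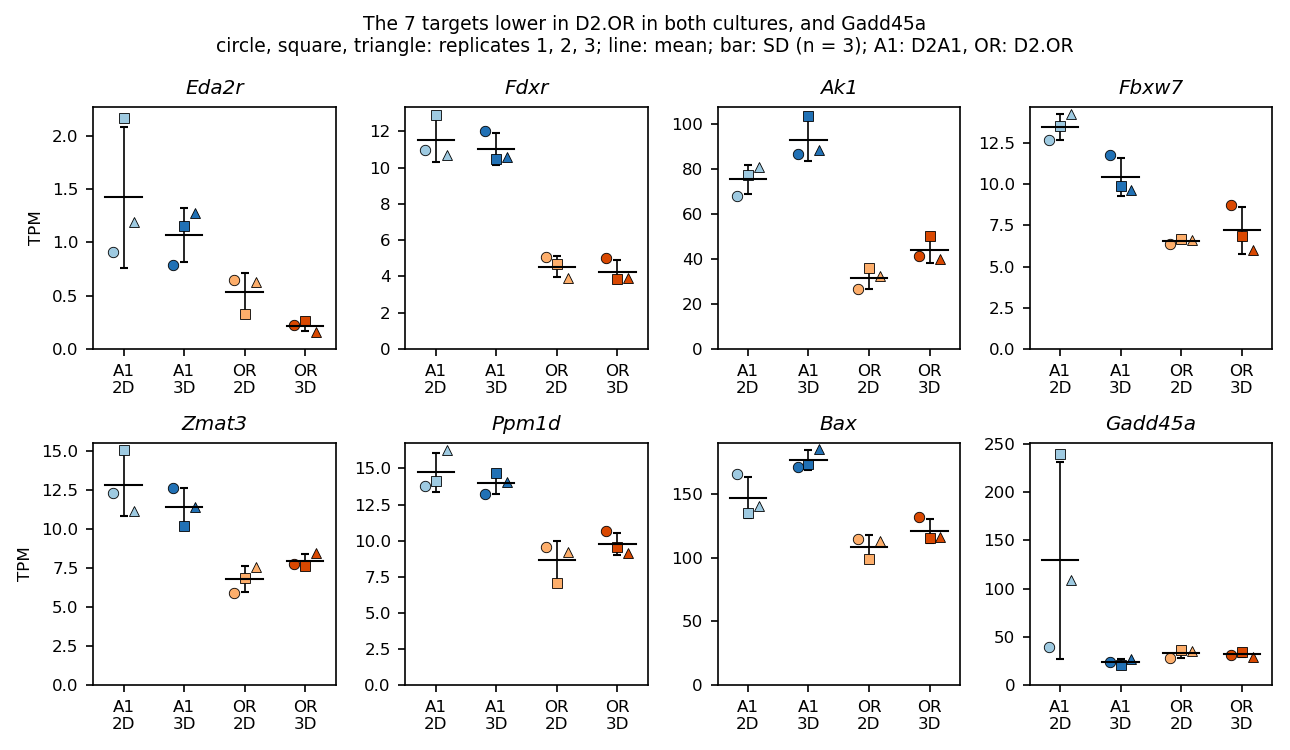
TPM (y axis, from 0) of the 7 targets lower in D2.OR in both cultures and of Gadd45a, in the 4 groups (x axis), with 1 point per library, the mean as a line and the SD as a bar (n = 3). For the 7 targets each D2.OR library lies below each D2A1 library, and Gadd45a reaches 240 TPM in D2A1 2D replicate 2.

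Few targets were called between the cultures, and in D2A1 the count depended strongly on single libraries. In D2.OR, edgeR called 0 of the 33 targets between 3D and 2D (1.62% of all genes were called), 6 had an unadjusted p under 0.05 (17.6% of all genes had), and DESeq2 called 1 (7.36% of all genes), limma on log2(TPM + 1) called 1 (1.69%) and limma on log2(TPM + 0.1) called 0 (1.29%). In D2A1, 2 targets were called, Fas higher and Gadd45a lower in 3D, against 3.48% of all genes (1.37% higher and 2.12% lower), and 13 had an unadjusted p under 0.05 (31.4% of all genes had). There DESeq2 called 8 targets (21.3% of all genes), and limma called 1 (4.52%) and 2 (6.75%) at the pseudocounts of 1 and 0.1. Without replicate 1 in every group edgeR called 18 targets in D2A1, 7 higher and 11 lower in 3D, against 36.3% of all genes. The median log2 fold change of the targets was 0.10 in D2.OR and -0.14 in D2A1, and that of all genes was 0.002 and 0.004. Trp53 itself gave -0.49 (SE 0.16, adjusted p = 0.173) in D2.OR and 0.35 (SE 0.17, adjusted p = 0.184) in D2A1.

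Gadd45a (chr6:67035096-67037457, minus strand), a growth arrest and DNA damage gene, was at 39.0, 240 and 108 TPM in D2A1 2D and 24.0, 21.0 and 26.8 TPM in D2A1 3D. In D2.OR it was at 27.8, 36.4 and 35.1 TPM in 2D and 31.6, 34.5 and 29.1 TPM in 3D. D2A1 2D lay above the other 3 groups, with a wide spread, and the others lay close together. From 2D to 3D in D2A1 its log2 value fell by 2.14 (SE 0.43, adjusted p = 0.042), and without D2A1 2D replicate 2 by 1.49 (adjusted p = 0.132). In 2D it was lower in D2.OR than in D2A1, at -1.70 (SE 0.42, adjusted p = 0.00912), and in 3D the difference was 0.34 (SE 0.41, adjusted p = 0.507). The 2D call was made under 21 of the 24 alternatives, which gave -2.20 to -1.02, this last without D2A1 2D replicate 2 (adjusted p = 0.0307). It was lost without replicate 2 (-1.06, adjusted p = 0.0907) or replicate 3 (-1.76, adjusted p = 0.0861) in every group, and without D2.OR 2D replicate 2 (-1.53, adjusted p = 0.0519).

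Fas (chr19:34290659-34327770, plus strand) was at 6.32, 4.61 and 4.77 TPM in D2A1 2D and 9.18, 20.2 and 18.7 TPM in D2A1 3D. In D2.OR it was at 5.18, 11.8 and 6.39 TPM in 2D and 16.4, 12.6 and 9.99 TPM in 3D. In D2A1 the cultures did not overlap, and in D2.OR they did. The rise in D2A1 was 1.68 (SE 0.38, adjusted p = 0.0489) on the log2 scale, and the change in D2.OR was 0.74 (SE 0.37, adjusted p = 0.332). Fas was called in D2A1 under 9 and Gadd45a under 10 of the 24 alternatives, and neither was called without the replicate block (adjusted p = 0.066 and 0.0571). Leaving out any 1 of the 6 D2.OR libraries, D2A1 2D replicate 2 or 3, or D2A1 3D replicate 2 or 3 also ended both calls, with a Fas value of 1.36 to 1.72 on the log2 scale and a Gadd45a value of -2.22 to -1.49.

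The interaction of line and culture, which asks whether the line difference changed between the cultures, called 0 targets with edgeR (0.0238% of all genes were called). For 5 targets the unadjusted p was under 0.05 (17.8% of all genes had such a p), DESeq2's likelihood-ratio test called 3 (5.61% of all genes), and limma called 0 at either pseudocount (0.0773% and 0.0535%). Without D2A1 2D replicate 1 edgeR called 6 targets in the interaction (14.5% of all genes) and 16 between the cultures in D2A1 (30.3%), and without D2A1 3D replicate 1 it called 7 between the cultures (12.8%). Without replicate 1 in every group it called 8 in the interaction (17.8%). The largest interactions were those of Gadd45a, at 2.04 (SE 0.59, adjusted p = 0.159), and Trp53inp1, at 1.87 (SE 0.57, adjusted p = 0.167). The line difference had the same direction in all batches of 2D and the opposite direction in all batches of 3D for 2 targets, Tnfrsf10b and Gadd45a, and for 2.87% of all genes. The culture difference had the same direction in all batches of D2.OR and the opposite direction in all batches of D2A1 for 2, Tnfrsf10b and Ercc5, and for 7.03% of all genes.

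Batches differed for some of the targets. Replicate 1 was the highest of its group in TPM in all 4 groups for 4 of the 33 targets, Btg2, Ccng1, Cd82 and Perp, as it was for 10.4% of all genes tested, and the lowest in all 4 groups for none of them, as it was for 5.01% of all genes. Btg2 was at 38.6 to 59.6 TPM in the replicate 1 libraries and at 5.58 to 27.9 TPM in the others. The replicate number is also the lane and batch, and what else differed between batches was not analysed here.

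**Figure D4:**
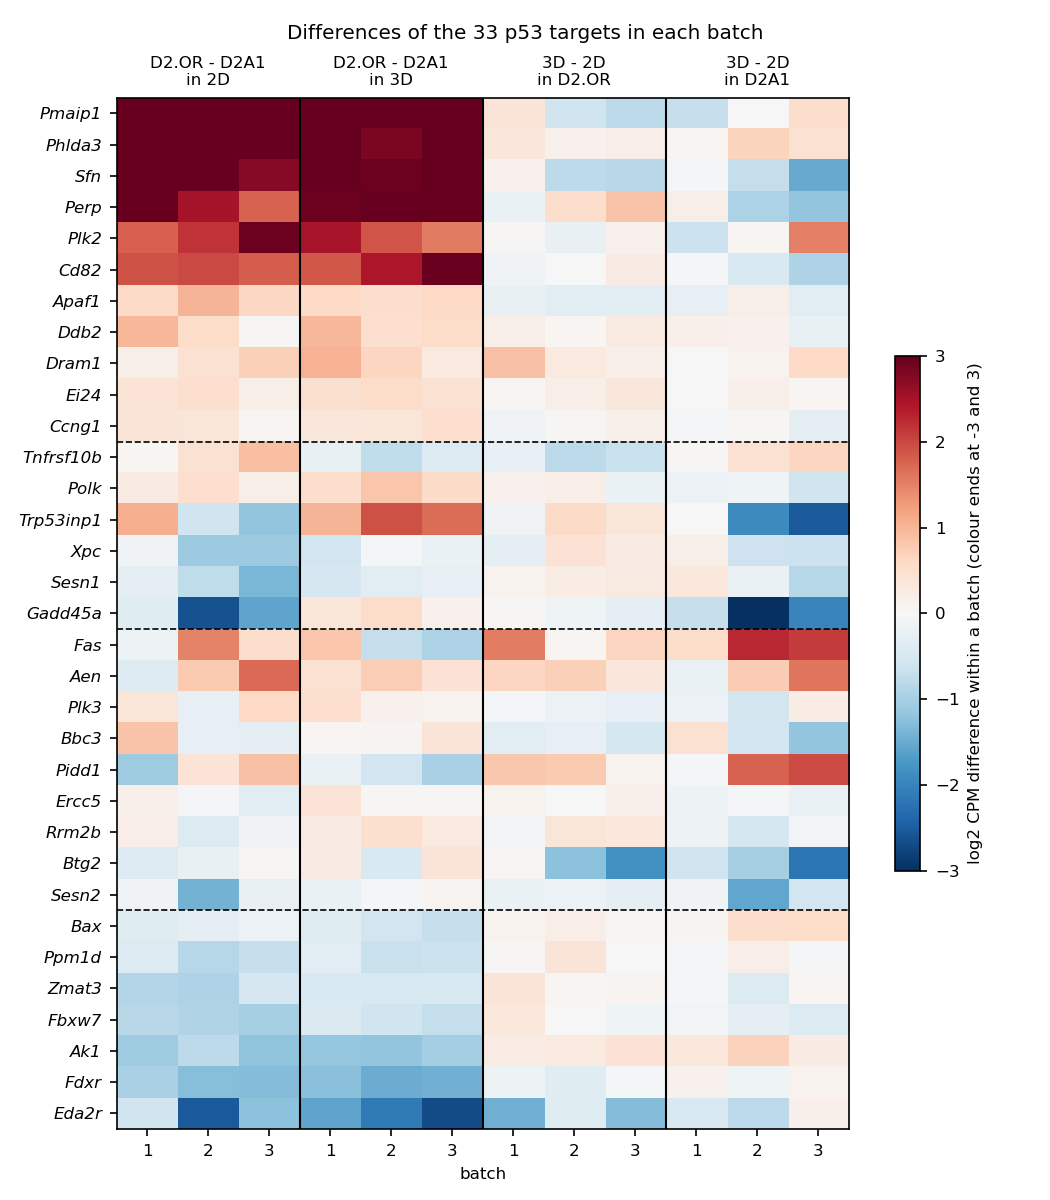
Log2 CPM difference within each batch (columns) for each of the 33 targets (rows, ordered as in the plot of line differences), for D2.OR minus D2A1 in 2D and 3D and for 3D minus 2D in each line, with red for positive and blue for negative values. The targets at the top are positive and those at the bottom negative in all batches of both line comparisons, though Ccng1 and Ddb2 reach only 0.05 each in batch 3 in 2D. The 3D minus 2D columns of D2A1 differ most between batch 1 and the other batches.

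Promoter sequence was compared between targets that followed and targets that opposed Trp53, because both sets are listed as direct targets. RefSeq promoters of GRCm38.p6, from 250 bases before to 50 bases after the start, were listed for 25 of the 33 targets and searched on both strands for the p53 decamer consensus, which is its own reverse complement. At least 1 exact decamer lay in the promoter of 8 of these 25 targets and of 9.55% of all 27025 genes with a listed promoter. The 25 targets had 38 listed promoters and the 27025 genes 32851, so more sequence was searched per target. Sites outside this window, farther upstream or within the gene, were not searched. Of the targets with a listed promoter, 2 of 8 that followed, 2 of 6 that opposed, 3 of 3 called in 1 culture or in opposite directions, and 1 of 8 called in neither held one. A full site, taken as a pair of decamers at most 13 bases apart with at most 1 mismatch, was in 3 targets (Ccng1, Bax and Polk) and 1.24% of all genes. An exact pair was in none of the 25 targets and in 20 genes of all, among them the well-known p53 target Cdkn1a, shown for comparison. The sequences are given 5′ to 3′ on the strand of the gene with the decamers in capitals, each with up to 20 flanking bases on either side. For a full site the pair with the fewest mismatches is marked, whatever its gap, which is 12 bases for Cdkn1a. Other pairs in the same stretch are left in lower case. A match describes these letters and is not evidence of binding.
Ccng1, follows, full site with 1 mismatch at -195 from the start (chr11:40755442-40755501, minus strand): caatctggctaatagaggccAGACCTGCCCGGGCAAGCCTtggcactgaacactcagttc
Ei24, follows, decamer at -10 (chr9:36797315-36797364, minus strand): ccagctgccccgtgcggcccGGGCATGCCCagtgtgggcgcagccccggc
Bax, opposes, full site with 1 mismatch at -212 (chr7:45467070-45467130, minus strand): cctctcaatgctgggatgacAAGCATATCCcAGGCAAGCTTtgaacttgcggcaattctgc
Polk, called in 3D, full site with 1 mismatch at -231 (chr13:96519378-96519437, minus strand): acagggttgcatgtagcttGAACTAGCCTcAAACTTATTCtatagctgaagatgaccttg
Ppm1d, opposes, decamer at -132 (chr11:85311102-85311151, plus strand): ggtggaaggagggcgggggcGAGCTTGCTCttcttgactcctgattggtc
Gadd45a, called in 2D, decamer at -40 (chr6:67037418-67037467, minus strand): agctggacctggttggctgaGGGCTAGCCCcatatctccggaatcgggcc
Cdkn1a, no member of the list, exact full site at -73 (chr17:29090886-29090957, plus strand): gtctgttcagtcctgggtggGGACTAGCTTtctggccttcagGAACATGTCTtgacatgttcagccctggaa
Of the 3 targets with a full site of 1 mismatch, Ccng1 was higher and Bax lower in D2.OR in both cultures, with 2D calls made under only 7 and 6 of the 24 alternatives, and Polk was called higher in 3D and not in 2D.

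The wider pathway was read from lists of other regulators and further targets. Of 18 regulators besides Trp53, 17 were tested, and 11 passed in 2D (4 higher and 7 lower in D2.OR) and 10 in 3D (4 higher and 6 lower), beside the 49.8% and 53.8% of all genes. Of 21 further targets 20 were tested, and 13 passed in 2D (8 higher and 5 lower) and 15 in 3D (8 higher and 7 lower), beside the same shares. Mdm2, the ubiquitin ligase that degrades p53 and is in both lists, was at 37.5, 36.0 and 37.0 TPM in D2A1 2D, 33.7, 35.7 and 38.3 TPM in D2A1 3D, 40.4, 45.9 and 45.4 TPM in D2.OR 2D, and 44.6, 45.4 and 51.2 TPM in D2.OR 3D. It was slightly higher in every D2.OR library, by 0.41 (SE 0.08, adjusted p = 0.00227) on the log2 scale in 2D and 0.49 (SE 0.08, adjusted p = 0.000807) in 3D. Cdkn1a, the inhibitor of cyclin-dependent kinases p21, gave 0.20 (SE 0.27, adjusted p = 0.566) in 2D and 1.34 (SE 0.27, adjusted p = 0.00288) in 3D. Its level was 75.6, 20.4 and 26.3 TPM in D2.OR 2D and 105.5, 65.7 and 60.4 TPM in D2.OR 3D, against 21.5 to 45.4 TPM in D2A1, so the lines overlapped in 2D.

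The 4 other genes of these lists with the smallest p, taking for each gene the smaller of its 2D and 3D values, also went both ways. Ddit4l, an inhibitor of growth signaling, was higher in D2.OR by 7.33 (SE 0.47, adjusted p = 4.53e-06) on the log2 scale in 2D and 6.54 (SE 0.45, adjusted p = 5.97e-06) in 3D. These values rest on a low level in D2A1, at 0.23 to 1.34 TPM against 60.4 to 97.7 TPM in D2.OR. Rap2b, a small GTPase, was higher by 1.46 (SE 0.10, adjusted p = 6.12e-06) and 1.12 (SE 0.10, adjusted p = 2.49e-05). Cpt1c, a neuronal relative of the carnitine palmitoyltransferases, was lower, at -4.24 (SE 0.20, adjusted p = 8.66e-07) and -3.70 (SE 0.20, adjusted p = 1.56e-06). Its level was 9.83 to 17.5 TPM in D2A1 and a low 0.69 to 1.24 TPM in D2.OR. Trp53bp1, a DNA damage adaptor, was lower, at -0.77 (SE 0.09, adjusted p = 0.00018) and -1.28 (SE 0.09, adjusted p = 8.98e-06).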

How the data were processed

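RNA-seq was done on 12 libraries (D2A1 and D2.OR, 2D and 3D, 3 replicates each). The submitters' processing notes name FastQC 0.11.4, Trimmomatic 0.32, STAR 2.5.3 and RSEM 1.3.0, with the build GRCm38. The authors deposited RSEM expected counts, which are not normalized, and TPM, which is scaled for gene length and library size and keeps no depth. The deposited gene lengths, in bases, are those RSEM estimated for each library. Whether counting used strand is not given in the sources used here, so reads of overlapping antisense genes cannot be told apart.

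The expected counts were rounded and tested over all genes with edgeR 4.0.16 (R 4.3.3): TMM, its low-count filter, a term for each group, a block for the batch (the replicate number), the quasi-likelihood test and Benjamini-Hochberg adjustment, called at an adjusted p under 0.05. Within-batch values are log2 CPM with a prior count of 2. The floor was 3 counts per library and covers counting error only. The batch comes from the labels; libraries of the same number had correlated deviations from their group means (0.08 to 0.51, median 0.27, 18 pairs), against a median of -0.19 over 36 pairs of different number. The fit was tested on simulated data.

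The 33 targets, the lists and the tests were chosen with earlier results of these data known. Values per library were given for Trp53, for the 6 largest rises and 6 largest falls among targets called the same way in both cultures, and for targets called between cultures. Values of Mdm2 and Cdkn1a are also given, and of the other lists at most 4 genes with the smallest p are named. The 24 alternatives were no block, DESeq2 1.42.0, limma 3.58.1 on log2(TPM + 1) or log2(TPM + 0.1), DESeq2 size factors, library totals, no filter, a minimum of 10 counts per library, a fit on just the compared groups, and leaving out 1 batch or 1 library at a time. Promoters are from RefSeq, GRCm38.p6.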

Additional observations from a re-analysis of the deposited data

Results flagged for a closer look

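For 3 targets and Trp53, a difference had the same direction in all 3 batches of a comparison and the opposite direction in all batches of its counterpart. The counterparts were the line difference in 2D and in 3D, or the culture difference in D2.OR and in D2A1. Of all genes, 2.87% showed this in the line difference and 7.03% in the culture difference. In edgeR's fit to all libraries no interaction of the 3 targets or Trp53 passed the adjusted threshold. DESeq2 called the interaction of Trp53 (adjusted p = 0.0381), Tnfrsf10b (0.0113) and Gadd45a (0.0189), and edgeR called that of Tnfrsf10b and Gadd45a without replicate 1 (adjusted p = 0.00957 and 0.00928) and without D2A1 2D replicate 1 (0.0155 and 0.00578). Trp53 was lower in 3D in all batches of D2.OR and higher in all batches of D2A1, with an interaction of -0.84 (SE 0.23, adjusted p = 0.155) on the log2 scale. Tnfrsf10b was higher in D2.OR in all batches in 2D and lower in all in 3D, and by the same values lower in 3D in all batches of D2.OR and higher in all of D2A1, with an interaction of -0.94 (SE 0.23, adjusted p = 0.124). In batch 1, however, its log2 CPM difference was only 0.05 between the lines in 2D and 0.02 between the cultures in D2A1. In TPM these went the other way, with replicate 1 at 18.3 in D2.OR 2D, 19.3 in D2A1 2D and 19.2 in D2A1 3D. Gadd45a was lower in D2.OR in all batches in 2D and higher in all in 3D, with an interaction of 2.04 (SE 0.59, adjusted p = 0.159). Ercc5 was higher in 3D in all batches of D2.OR and lower in all of D2A1, with an interaction of 0.24 (SE 0.16, adjusted p = 0.462).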

How the results depend on the processing

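Leaving out replicates gave 11 to 24 targets called between the lines in 2D (24.9% to 53.8% of all genes), 12 to 25 in 3D (31% to 59.5%), 0 to 3 between cultures in D2.OR (0% to 8.38%), 0 to 18 in D2A1 (0% to 36.3%), 0 to 8 in the interaction (0% to 17.8%), and 7 to 11 that followed Trp53. Those that opposed it numbered 2 to 8 over all alternatives, with 2 without replicate 2 and 3 without replicate 3. The lowest line counts came without replicate 2 and the highest culture counts without replicate 1, in every group. With only the groups compared, 14 were called in 2D (37.5% of all genes), 24 in 3D (57.6%), 1 between cultures in D2.OR (5.16%), 0 in D2A1 (0.0981%), and 7 followed. With library totals in place of TMM 7 followed, and the median of all genes moved to -0.17 in 2D and -0.10 in 3D. DESeq2 called 1 in D2.OR (7.36%), 8 in D2A1 (21.3%) and 3 in the interaction (5.61%), and limma on log2(TPM + 1) called 1 in D2.OR (1.69%) and 1 in D2A1 (4.52%). Without the replicate block 18 were called in 2D (43.9%), 20 in 3D (47.8%), 0 between cultures in D2.OR (0.119%) and D2A1 (0.309%), 0 in the interaction (0%), and 9 followed. The 2D log2 fold change of Pidd1 (-0.01) ran from -0.43 to 0.67 over the omissions, and was reversed without replicate 1 (0.67) and without D2A1 2D replicate 1 (0.65). The cause was not tested. The interaction has no value with only the groups compared, and Pmaip1 none under the minimum of 10 counts in every library. Depth limits Pmaip1 in D2A1 to a bound.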

Other observations

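By median TPM, the order of the targets differed between the lines. In D2A1, Bax (169 TPM), Ak1 (83.5 TPM) and Perp (73.6 TPM) led, and in D2.OR Perp (479 TPM), Bax (115 TPM) and Phlda3 (73.7 TPM). In D2A1 the range of Perp (29.9 to 182 TPM) overlapped those of Bax (135 to 186 TPM) and Ak1 (68.0 to 103.6 TPM), and in D2.OR that of Bax (98.7 to 132 TPM) overlapped that of Phlda3 (60.7 to 122 TPM). At the bottom, Eda2r was 31st in D2A1 with 1.17 TPM and last in D2.OR with 0.295 TPM, and Pmaip1 was last in D2A1.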
